A study of Mus musculus with 2 samples.

Results

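Expression of the transcription factor heptad of blood stem cells was described in hematopoietic stem cells (HSCs) of the mouse that were sorted by a reporter of Satb1, the gene of a protein that organizes chromatin in lymphoid cells. The heptad is the set Gata2, Tal1, Lmo2, Lyl1, Runx1, Fli1 and Erg, and the partners Ldb1 and Cbfb were added, which made 9 genes of the 23210 measured. They were chosen by name, with earlier results of these data known, and all 9 were found under their current symbols. The cells were LSK cells (no lineage markers, with Sca-1 and Kit on the surface) that were CD150-positive and Flt3-negative. One group was negative and the other positive for a Satb1-Tomato fluorescent reporter, and each group had 1 RNA sequencing library. The sources used here give no strain, age or number of animals and do not describe the reporter allele. The groups are called SATB1-negative and SATB1-positive cells here after their labels. The comparison asks by how much each gene differed in reporter-positive relative to reporter-negative HSCs.

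The heptad proteins bind together at many regulatory regions of blood stem and progenitor cells, their own genes included. GATA2 is a zinc finger factor that HSCs need for their survival and expansion. TAL1 (also called SCL) and its paralog LYL1 are basic helix-loop-helix (bHLH) proteins that pair with E proteins such as TCF3. LMO2 binds no DNA itself and bridges the bHLH and GATA proteins to LDB1, an adaptor that joins distant regions into loops. RUNX1 starts definitive blood formation in the embryo and binds DNA with its non-DNA-binding partner CBFB. FLI1 and ERG are closely related ETS factors of blood and endothelial cells.

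Values are FPKM, in which the number of fragments of a gene is divided by its length and by the depth of the library, so levels of different genes are compared per length. With 1 library per group there is no replicate check, and no p-value was computed. Intervals are exact 95% intervals on fragment numbers estimated from the FPKM, at depths of about 35220000 fragments in SATB1-negative and 26780000 in SATB1-positive cells. They cover counting error only, not the spread between animals or sorts, and PCR copies counted as fragments can make them too narrow. A ratio in log2 is log2((SATB1-positive FPKM + 1)/(SATB1-negative FPKM + 1)). The rule of size asked for a ratio of 1 or more, or -1 or less, and for 5 FPKM or more where the gene was higher. Satb1 itself was at 2.37 FPKM in SATB1-negative and 8.26 FPKM in SATB1-positive cells, so the SATB1-negative cells were not free of Satb1 transcripts. Among genes of the proteins used for sorting, Kit was at 318 and 286 FPKM, Ly6a (Sca-1) at 64.5 and 73.9 FPKM, and Slamf1 (CD150) at 15.97 and 11.9 FPKM. Flt3, whose protein the sort excluded, was at 17.3 and 27.1 FPKM. Cd48, whose protein is not named for the sort, was at 47.6 and 145 FPKM, a log2 ratio of 1.59.

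All 9 genes were expressed above 5 FPKM in both libraries, over a wide range of levels. Lmo2 was the most abundant, at 671 FPKM in SATB1-negative cells (663 to 678) and 508 FPKM in SATB1-positive cells (501 to 516), above 99.7% and 99.6% of all genes. Gata2 came next, followed by Cbfb, Fli1, Ldb1, Runx1 and Tal1, and this order was the same in each library. Lyl1 and Erg were the 2 lowest. Lyl1 was at 6.12 FPKM (5.49 to 6.81) and Erg at 5.38 FPKM (4.73 to 6.09) in SATB1-negative cells, where their intervals overlapped. In SATB1-positive cells Erg, at 7.73 FPKM (6.83 to 8.70), stood above Lyl1, at 5.83 FPKM (5.13 to 6.61), and the intervals were apart. No other neighbors in the order had overlapping intervals in either library. Lmo2 alone made up 66.6% of the summed FPKM of the 7 heptad genes in SATB1-negative and 64.1% in SATB1-positive cells. That sum was 1008 FPKM and 793 FPKM, and without Lmo2 it was 337 and 285 FPKM.

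**Figure D1:**
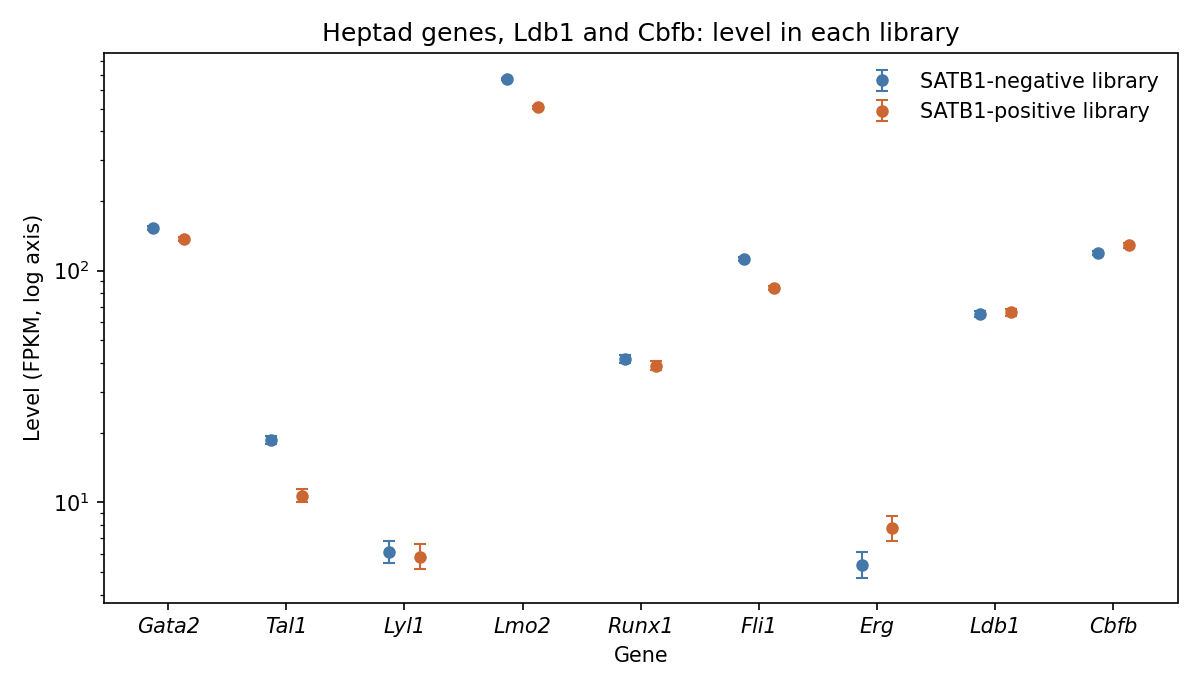
FPKM (log axis) of the 9 genes in SATB1-negative and SATB1-positive libraries, 1 library each; bars are exact 95% Poisson intervals for counting error. Lmo2 is highest in each library, Tal1 shows the widest gap between libraries, and Erg is higher in SATB1-positive cells, with bars that do not overlap.

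None of the 9 genes met the rule of size, which 2% of the 9308 genes that reached 5 FPKM in either library met. At a smaller threshold of 1.5-fold on the same scale, Tal1 alone passed, as lower in SATB1-positive cells, where 2.9% of genes passed as lower, 3.8% as higher and 6.7% in either direction. Of the 9, 6 had a ratio below 0 (Gata2, Tal1, Lmo2, Lyl1, Runx1 and Fli1) and 3 above (Erg, Ldb1 and Cbfb), beside 50% of all 9308 genes below 0. The median log2 ratio was -0.15 over the heptad and -0.10 over the 9 genes, and that of the 9308 genes was -0.00017. The counting interval of the fold left out 1 for 7 of the 9, with 5 lower and 2 higher. That was so for 66.9% of the 8441 genes with a fragment estimate, 32.3% lower and 34.6% higher, so the count of 7 is near the background. The median absolute log2 ratio of the 9308 genes was 0.16, which Tal1, Lmo2, Fli1 and Erg exceeded.

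**Figure D2:**
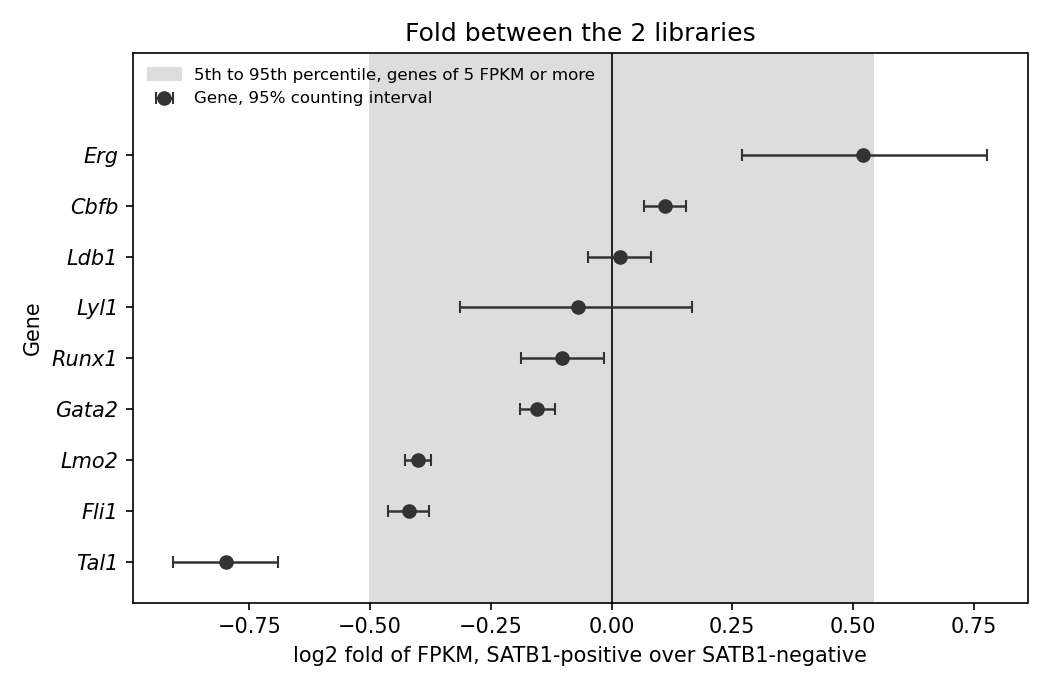
log2 fold of FPKM without a pseudocount, SATB1-positive over SATB1-negative, for the 9 genes; bars are exact 95% counting intervals and the grey band spans the 5th to 95th percentile (-0.50 to 0.54) of genes that reached 5 FPKM. Tal1 lies below the band, Lmo2 and Fli1 near its lower edge, and Erg near its upper edge.

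Of the bHLH factors, Tal1 was the heptad gene with the largest difference, and Lyl1 did not detectably differ. Tal1 was at 18.6 FPKM in SATB1-negative cells (17.8 to 19.4, about 2288 fragments) and 10.7 FPKM in SATB1-positive cells (10.04 to 11.4, about 1000 fragments). It was thus 1.74-fold lower in SATB1-positive cells (1.61 to 1.88), with a log2 ratio of -0.75. This ratio stood at percentile 1.58 of the 9308 genes, and 1.54% of the 4468 genes within 2-fold of its mean level had a ratio as low. Lyl1, which can take over part of the role of Tal1 in adult HSCs, had a fold of 0.953 (0.804 to 1.12) from about 343 and 248 fragments. Its interval allows a decrease or an increase, so no difference was detectable at this depth. The Tal1 to Lyl1 ratio within a library was 3.04 (2.71 to 3.41) in SATB1-negative and 1.83 (1.60 to 2.12) in SATB1-positive cells, a change of 0.603-fold (0.503 to 0.727). Such a ratio within a library does not depend on how the libraries are scaled. The pairs were chosen by known partnership or paralogy after values had been seen. Not every pair changed: the Gata2 to Runx1 ratio was 3.66 (3.51 to 3.82) in SATB1-negative and 3.53 (3.36 to 3.71) in SATB1-positive cells. That is a change of 0.965-fold (0.904 to 1.03), an interval that includes 1. How often pairs drawn from all genes would change as much was not computed. Lyl1 shares exon bases with Nfix on the opposite strand (27.4 and 26.4 FPKM), and the sources used here do not say whether counting used strand.

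Tcf3, which encodes the E proteins E12 and E47 with which TAL1 dimerizes, was at 71.2 and 83.5 FPKM, whereas the E protein gene Tcf12 was at 29.99 and 24.6 FPKM. The Tal1 to Tcf3 ratio was 0.261 (0.249 to 0.274) in SATB1-negative and 0.128 (0.120 to 0.137) in SATB1-positive cells. Id proteins bind E proteins and keep them off DNA. Id2 was at 17.2 and 45.9 FPKM, a log2 ratio of 1.37, while Id1 was at 30.6 and 16.99 FPKM (-0.81) and Id3 at 24.9 and 17.9 FPKM (-0.45). Of the 9 bHLH relatives and Id genes listed, 6 had at least 5 FPKM, with a median log2 ratio of -0.23. Of these, 1 (Id2) met the rule of size as higher (1.31% of the 9308 genes did) and 0 as lower (0.688%).

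Of the adaptor genes, Lmo2 was lower in SATB1-positive cells and Ldb1 was level. Lmo2, at 671 and 508 FPKM, was 1.32-fold lower (1.30 to 1.34), the largest difference of the 9 genes in absolute level. Its log2 ratio of -0.40 stood at percentile 7.03 of the 9308 genes, and 5.29% of the 170 genes within 2-fold of its level had a ratio as low. Ldb1 was at 65.2 FPKM (63.3 to 67.2) and 66.0 FPKM (63.7 to 68.3), a fold of 1.01 (0.967 to 1.06), an interval that includes 1. Ldb1 shares exon bases with Pprc1 on the opposite strand (14.7 and 17.5 FPKM). The Lmo2 to Ldb1 ratio was 10.3 (9.97 to 10.6) in SATB1-negative and 7.70 (7.42 to 7.996) in SATB1-positive cells. Lmo2 and Tal1 were lower by unequal factors: the Lmo2 to Tal1 ratio was 36.1 (34.6 to 37.7) and 47.5 (44.6 to 50.7). Among relatives of the adaptors, Lmo4 was at 21.7 and 28.7 FPKM (log2 ratio 0.39) and Lmo1 at 9.99 and 6.43 FPKM (-0.56).

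Gata2 was slightly lower and Gata1 higher in SATB1-positive cells. Gata2 was at 153 FPKM (150 to 155) in SATB1-negative and 137 FPKM (135 to 139.9) in SATB1-positive cells, 1.11-fold lower (1.09 to 1.14), with a log2 ratio of -0.15. Of the 1100 genes within 2-fold of its level, 43.9% lay as far from 0, so the difference is of an ordinary size for these libraries. Gata1, the GATA factor of erythroid, megakaryocyte, mast and eosinophil cells, was at 32.98 and 44.02 FPKM, 1.33-fold higher (1.25 to 1.42). The Gata2 to Gata1 ratio was 4.63 (4.42 to 4.86) in SATB1-negative and 3.12 (2.97 to 3.27) in SATB1-positive cells, a change of 0.674-fold (0.629 to 0.720). Gata3 was at 11.5 and 11.3 FPKM, and Gata4, Gata5 and Gata6 were under 1 FPKM in both libraries. GATA2 is also a factor of mast cells and basophils. Of the 6 listed mast cell and basophil markers, Mcpt8, Cpa3 and Prss34 reached 5 FPKM in both libraries. They met the rule of size as higher, beside 1.31% of the 9308 genes. Gzmb, Ms4a2 and Fcer1a reached 5 FPKM in SATB1-positive cells only, so the filter by itself favored a higher ratio for them. The summed level of the 6 was 156 FPKM in SATB1-negative and 564 FPKM in SATB1-positive cells. The part of such cells in the Gata1 and Gata2 values was not tested. In bulk samples, fewer cells of a type and less RNA per cell cannot be told apart.

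Runx1 and its partner Cbfb stayed close to level. Runx1 was at 41.7 FPKM (40.1 to 43.3) and 38.9 FPKM (37.1 to 40.7), a fold of 0.932 (0.878 to 0.990). Cbfb was at 119 FPKM (117 to 121) and 128 FPKM (126 to 131), a fold of 1.08 (1.05 to 1.11). With 10 times fewer independent fragments the intervals of both genes would include 1, at 0.768 to 1.13 for Runx1 and 0.981 to 1.19 for Cbfb. The Cbfb to Runx1 ratio was 2.85 (2.73 to 2.98) in SATB1-negative and 3.30 (3.14 to 3.48) in SATB1-positive cells, so Cbfb transcripts outnumbered those of Runx1 per length in each. The other RUNX genes were lower than Runx1. Runx2 was at 17.02 and 15.9 FPKM, and Runx3, which T and NK cells use, at 16.9 and 21.4 FPKM (1.27-fold, 1.19 to 1.35). The 7 listed T and NK cell markers summed to 12.1 FPKM and 59.96 FPKM. The 5 of them that reached 5 FPKM did so in SATB1-positive cells only, so this filter by itself favored ratios above 0. Below it, Ncr1 was at 0.228 and 1.46 FPKM and Thy1 at 0.395 and 0.904 FPKM. The part of T and NK cells in the Runx3 value was not tested.

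The ETS pair diverged: Fli1 was lower and Erg higher in SATB1-positive cells. Fli1 was at 112 FPKM (111 to 114) in SATB1-negative and 84.1 FPKM (82.1 to 86.1) in SATB1-positive cells, 1.34-fold lower (1.30 to 1.38). Its log2 ratio of -0.42 stood at percentile 6.49 of the 9308 genes, and 3.79% of the 1794 genes within 2-fold of its level had a ratio as low. Erg, a factor that HSCs need for self-renewal, had about 248 and 271 fragments behind its 5.38 and 7.73 FPKM. It was 1.44-fold higher (1.21 to 1.71), with a log2 ratio of 0.45 at percentile 93.8, and 8.30% of the 3504 genes within 2-fold of its level had a ratio as high. With 10 times fewer independent fragments its interval would run from 0.794 to 2.55 and include 1, so the Erg difference is the least firmly measured of the larger ones. The Fli1 to Erg ratio was 20.9 (18.4 to 23.8) in SATB1-negative and 10.9 (9.63 to 12.3) in SATB1-positive cells, a change of 0.521-fold (0.435 to 0.622). Of 24 other ETS genes listed, 13 had at least 5 FPKM, with a median log2 ratio of 0.07 and 0 past the rule of size. The ends of their range were Ets1, a factor of lymphocytes, at 11.3 and 23.3 FPKM (log2 ratio 0.99), and Etv5, at 17.5 and 11.2 FPKM (-0.60). Spi1, the gene of PU.1, listed under its older symbol, was at 72.97 and 83.6 FPKM.

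**Figure D3:**
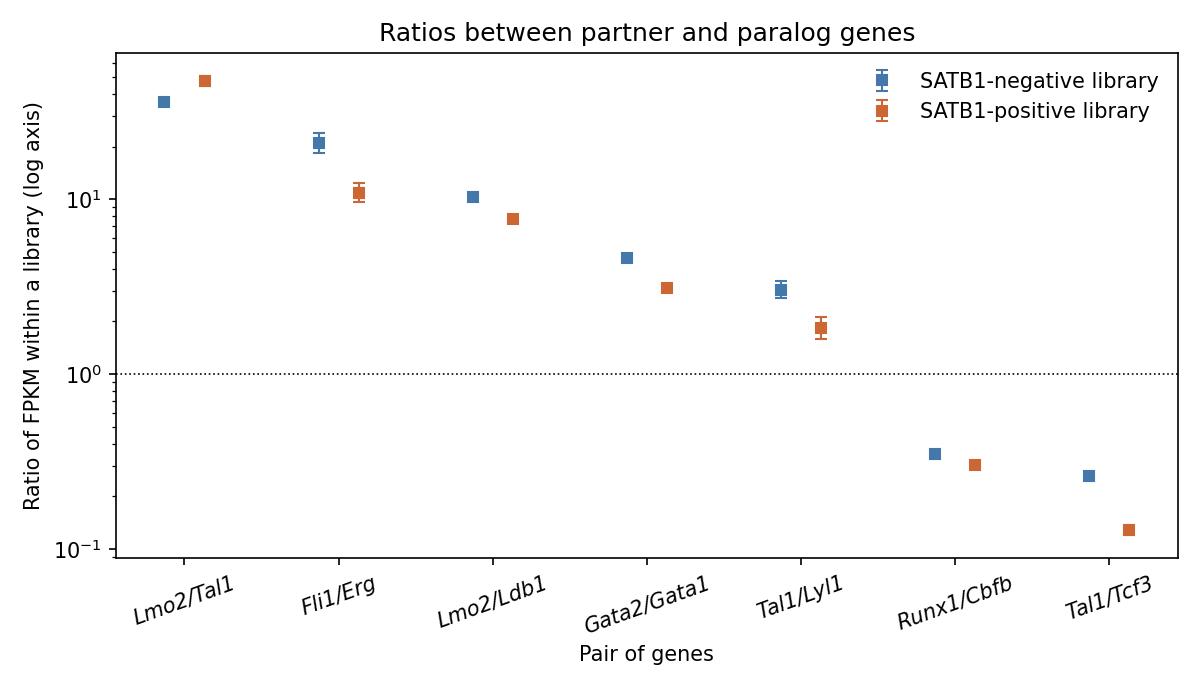
Ratio of FPKM between 7 pairs of partner or paralog genes within each library (log axis; dotted line at 1); bars are exact 95% counting intervals. The Fli1 to Erg, Tal1 to Lyl1 and Tal1 to Tcf3 ratios are lower in SATB1-positive cells, and the Lmo2 to Tal1 ratio is higher.

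The promoters of Tal1 and Erg are shown with those of Lyl1 and an internal start of Ldb1. Tal1 and Erg had the log2 ratios farthest from 0 with the pseudocount of 1, though with a pseudocount of 5 Fli1 (-0.40) passed Erg (0.29). The heptad factors are known to bind regulatory regions of their own genes. The Ldb1 start was chosen for its motif matches. Each sequence is the 250 bases before a RefSeq start (build GRCm38.p6, the mm10 assembly), read 5′ to 3′ along the gene. Capitals mark letters of 4 short motifs on either strand: GATAA or its reverse TTATC (GATA factors), CAGNTG or CANCTG (an E-box, bound by bHLH pairs), AGGAAG or CTTCCT (ETS factors) and TGTGG or CCACA (RUNX factors). None of the 4 motifs contains another. The Tal1 windows lie on the plus strand at chr4:115056176-115056425 and chr4:115057561-115057810. The Erg windows lie on the minus strand at chr16:95586594-95586843, chr16:95530366-95530615 and chr16:95459349-95459598. The Lyl1 window is on the plus strand at chr8:84701207-84701456 and that of Ldb1 on the minus strand at chr19:46037071-46037320.
Tal1 distal: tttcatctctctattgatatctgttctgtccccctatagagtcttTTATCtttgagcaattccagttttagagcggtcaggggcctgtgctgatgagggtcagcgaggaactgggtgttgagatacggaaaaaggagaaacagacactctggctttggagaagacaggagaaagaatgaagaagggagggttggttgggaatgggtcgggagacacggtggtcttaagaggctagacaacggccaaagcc
Tal1 proximal: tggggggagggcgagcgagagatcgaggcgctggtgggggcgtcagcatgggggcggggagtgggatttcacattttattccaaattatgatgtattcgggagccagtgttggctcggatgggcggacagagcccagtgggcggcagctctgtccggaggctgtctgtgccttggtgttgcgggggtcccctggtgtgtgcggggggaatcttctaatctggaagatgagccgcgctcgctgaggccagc
Erg distal: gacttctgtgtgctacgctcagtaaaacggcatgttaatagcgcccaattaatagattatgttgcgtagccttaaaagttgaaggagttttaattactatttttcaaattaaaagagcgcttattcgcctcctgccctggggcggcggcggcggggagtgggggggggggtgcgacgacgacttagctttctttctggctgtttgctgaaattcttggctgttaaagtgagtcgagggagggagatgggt
Erg middle: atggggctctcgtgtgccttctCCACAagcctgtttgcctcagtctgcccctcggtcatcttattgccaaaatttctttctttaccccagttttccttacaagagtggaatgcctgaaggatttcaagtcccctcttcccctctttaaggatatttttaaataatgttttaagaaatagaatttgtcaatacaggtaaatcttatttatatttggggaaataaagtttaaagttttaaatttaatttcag
Erg proximal: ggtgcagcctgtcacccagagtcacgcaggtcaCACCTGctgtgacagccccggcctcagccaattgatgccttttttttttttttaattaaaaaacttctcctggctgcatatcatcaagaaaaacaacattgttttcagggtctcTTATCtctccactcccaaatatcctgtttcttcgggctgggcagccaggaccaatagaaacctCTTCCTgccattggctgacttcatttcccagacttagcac
Lyl1: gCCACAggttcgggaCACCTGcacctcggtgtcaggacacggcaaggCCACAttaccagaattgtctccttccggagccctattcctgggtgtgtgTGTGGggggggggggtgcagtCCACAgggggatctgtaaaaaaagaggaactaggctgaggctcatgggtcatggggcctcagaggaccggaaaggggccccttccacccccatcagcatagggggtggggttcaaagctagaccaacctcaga
Ldb1 internal: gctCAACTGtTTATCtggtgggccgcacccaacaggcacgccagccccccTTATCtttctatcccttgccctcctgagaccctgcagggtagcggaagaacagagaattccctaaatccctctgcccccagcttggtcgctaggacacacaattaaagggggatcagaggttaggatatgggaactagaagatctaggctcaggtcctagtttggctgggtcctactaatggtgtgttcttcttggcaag

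The set of promoter windows used here held starts for 7 of the 9 genes (Gata2, Tal1, Lyl1, Runx1, Erg, Ldb1 and Cbfb). It had no entry for Lmo2 and Fli1, although both have RefSeq-linked transcripts. Once bases inside annotated exons of the same gene had been removed, 13 windows were left, 12 of full length. A GATA match was present in 3 of the 13 windows, an E-box in 4, an ETS match in 4 and a RUNX match in 3, while 4 held none. Over all 32851 windows of 250 bases in the table, with exon bases kept, 22.6% held the GATA letters, 44.8% the E-box, 29.5% the ETS and 49.3% the RUNX letters. The distal Tal1 window held 1 GATA match and the proximal window none of the 4 motifs. The proximal Erg window held 1 GATA, 1 E-box and 1 ETS match, the middle window 1 RUNX match and the distal window none. In Ldb1 the internal window held 2 GATA matches and 1 E-box, and in Lyl1 the window held 1 E-box and 4 RUNX matches, one of them in a run of TG and G bases. These are matches of letters, not measured binding, and the gene values do not show which start was used.

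Transcripts of genes whose proteins work with the heptad on DNA mostly had ratios near 0. Of 22 listed complex partners, 21 had at least 5 FPKM, with a median log2 ratio of 0.09; 2 met the rule of size as higher (1.31% of all genes did) and 0 as lower (0.688%). The 2 were Gfi1, a repressor that limits HSC proliferation, at 5.37 and 14.4 FPKM (2.68-fold higher, 2.39 to 3.002), and Irf2bp2, at 25.5 and 57.8 FPKM (2.27-fold, 2.18 to 2.35). Gfi1b, the paralog of Gfi1 that erythroid and megakaryocyte cells use, was at 63.004 and 43.7 FPKM (log2 ratio -0.52), the lowest ratio of the list. Cbfa2t3, which encodes the corepressor ETO2 of the TAL1 complex, was at 32.8 and 28.9 FPKM. Over 2 libraries, the log2 ratios nearest to the heptad median of -0.15, among 100 listed genes that reached 5 FPKM, were those of Kit (-0.15), Gp1bb (-0.17) and Cbfa2t3 (-0.18). That median is the ratio of Gata2, so these genes are nearest to Gata2 and not to each heptad gene. The interval of the Gp1bb fold (0.740 to 1.04) included 1.

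Genes described as targets of heptad factors lay on both sides of 0. Of 24 listed, 22 had at least 5 FPKM, 11 above and 11 below 0, beside 50% of the 9308 genes below 0. Their median log2 ratio was -0.04. Of these, 2 met the rule of size as higher (1.31% of the 9308 genes did) and 0 as lower (0.688%). Those 2 were Mpo, myeloperoxidase of granulocyte precursors, at 437 and 1528 FPKM, and Gfi1. The lowest were Esam, an adhesion protein of HSCs and endothelium, at 68.5 and 34.2 FPKM (log2 ratio -0.98), and Vwf, von Willebrand factor, at 12.3 and 6.79 FPKM (-0.77). Of 23 other stem and progenitor transcription factors, 21 had at least 5 FPKM and a median of -0.0063. Past the rule of size were 2 as higher (Cebpa and Gfi1) and 1 as lower (Mycn), beside 1.31% and 0.688% of the 9308 genes. The lists share genes, and Gfi1 is the same gene that was counted among the complex partners and the targets. Cebpa reached 5 FPKM in SATB1-positive cells only. Cebpa, a factor of granulocyte commitment, was at 2.18 and 7.23 FPKM (1.37), and Mycn at 86.6 and 41.5 FPKM (-1.04). Hoxa5 was at 20.4 and 11.9 FPKM (-0.73), close to the ratio of Tal1. The heptad genes thus spanned -0.75 to 0.45, inside the range of these listed factors.

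**Figure D4:**
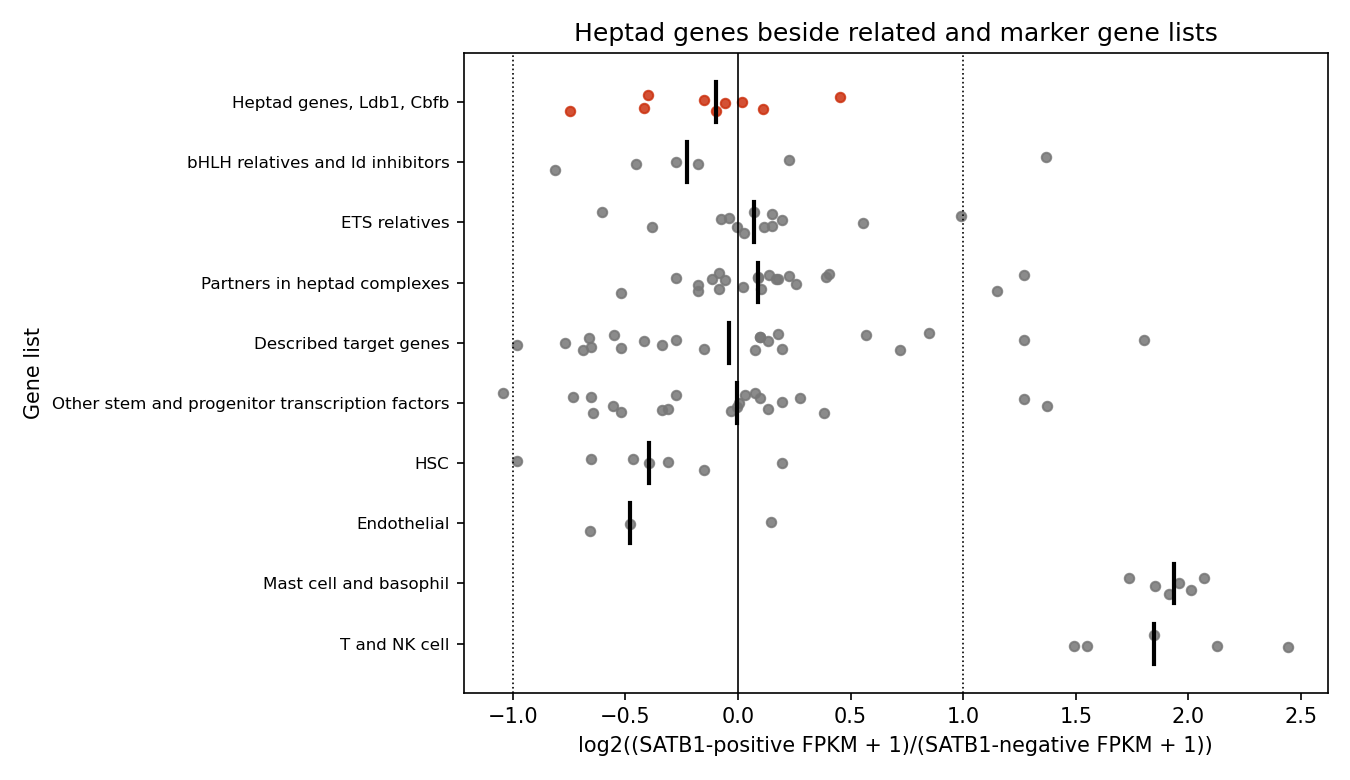
log2 ratio of FPKM + 1, SATB1-positive over SATB1-negative, for the 9 genes (red) and for listed genes that reached 5 FPKM (grey); each point is a gene, black bars are medians, and dotted lines mark the rule of size. The 9 genes lie between -0.75 and 0.45, and the mast cell, basophil, T and NK cell markers shown lie above 1. Many of those markers reached 5 FPKM in SATB1-positive cells only, which by itself favors ratios above 0.

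Markers of other cells that use heptad factors were read beside these values. HSC markers summed to 614 FPKM in SATB1-negative and 513 FPKM in SATB1-positive cells, with 6 of 7 below 0. Of all 9308 genes, 50% lay below 0, a share that also stands beside the erythroid and granulocyte counts below. Kit, Ly6a and Slamf1 on the HSC list encode proteins by which both groups were sorted. The median log2 ratio of the HSC markers was -0.39, beside -0.15 for the 7 heptad genes, which ran from -0.75 to 0.45. The 6 endothelial markers were mixed in level. Cdh5 was at 0.0837 and 0.00989 FPKM, Kdr at 0.839 and 0.378 FPKM and Cldn5 at 0.593 and 0.401 FPKM. Tie1 was at 45.9 and 28.7 FPKM, Emcn at 20.7 and 14.5 FPKM and Pecam1 at 20.6 and 22.9 FPKM. The 6 summed to 88.7 and 66.9 FPKM, and the median log2 ratio of the 3 that reached 5 FPKM was -0.48. Megakaryocyte and platelet markers summed to 159 and 189 FPKM with members on both sides: Ppbp and Pf4 were higher in SATB1-positive cells (log2 ratios 1.91 and 0.85) and Gp9 and Gp1bb lower (-0.55 and -0.17). Erythroid markers summed to 52.9 and 56.6 FPKM, with 3 of the 5 that reached 5 FPKM below 0 and a median log2 ratio of -0.04; Hba-a1 was at -0.61 and Epor at -0.30, and Hbb-b1 at 1.90 and Klf1 at 0.28. Both globin values are uncertain, since near-identical globin copies can share reads. Granulocyte markers summed to 1625 and 3483 FPKM, with 5 of 7 above 0 and 2 below. Mpo and Ctsg had the highest log2 ratios (1.80 and 1.76), and S100a8 and Ngp were lower in SATB1-positive cells (-0.45 and -0.25). The 4 B cell markers summed to 0.639 and 1.14 FPKM. The part of these cells in the values of the heptad genes was not tested.

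In the mm10 assembly (GENCODE M21), Tal1 (ENSMUSG00000028717.12) lies on chromosome 4 at 115056426 to 115071755, Lmo2 (ENSMUSG00000032698.15) on chromosome 2 at 103957986 to 103981878 and Gata2 (ENSMUSG00000015053.14) on chromosome 6 at 88193891 to 88207032, all on the plus strand. Fli1 (ENSMUSG00000016087.13) lies on chromosome 9 at 32422204 to 32542861, Runx1 (ENSMUSG00000022952.17) on chromosome 16 at 92601466 to 92826149 and Erg (ENSMUSG00000040732.20) on chromosome 16 at 95359169 to 95586593, all on the minus strand. Lyl1 (ENSMUSG00000034041.4) and Cbfb (ENSMUSG00000031885.14) lie on the plus strand of chromosome 8 at 84701457 to 84704715 and 105170674 to 105217989, and Ldb1 (ENSMUSG00000025223.15) on the minus strand of chromosome 19 at 46031570 to 46045214. Of the 50-base words in the annotated transcripts of each gene, at most 2.75% (Ldb1) also occurred in transcripts of another gene. Values are 1 per gene, so the 8 annotated transcripts of Erg, or the 7 of Runx1, were not told apart.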

How the data were processed

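RNA sequencing of 2 libraries was used. Per the file headers, the authors deposited FPKM, a single value for each symbol. Cufflinks 2.2.1, TopHat2 2.0.13, SAMtools 0.1.19, Bowtie2 2.2.3 and the build mm10 are named in the submitters' processing notes. Their roles and settings, the annotation and the use of strand were not given in the sources. Of 23235 rows, 25 with symbols turned into dates were left out.

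The files give no counts. Depth was searched so that low FPKM of single-exon genes gave whole fragments (within 0.05), with a length offset of 210 bases: 69.4% of 134 values were whole in the SATB1-negative and 69.7% of 165 in the SATB1-positive library, beside 10% at random; the search chose the best fit, so 10% is not its chance level. A fragment over 1 kb is worth 0.0284 and 0.0373 FPKM. Fragments per gene used the shortest RefSeq-linked GENCODE M21 transcript (89.6% of genes had a length). Folds and ratios within a library have exact Clopper-Pearson intervals, changes of such ratios exact conditional odds-ratio intervals, and levels exact Poisson intervals (SciPy 1.17.1). The interval and depth steps were tested on simulated data.

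Members and gene lists were chosen with earlier results of these data known. Named list genes were the 2 highest and 2 lowest ratios among those that reached 5 FPKM; others were named for their known link to a member, after their values were seen. Alternatives were pseudocounts of 0.1 and 5, 3 scalings, other filters and folds, and other fragment estimates. Replicates could not be left out.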

Additional observations from a re-analysis of the deposited data

How the results depend on the processing

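The main limit is that each group has 1 library, so no value has a replicate check. No paired analysis was possible because each group holds a single library and no test was run. Under pseudocounts of 0.1 and 5 and scaling by the median ratio, the sum or the upper quartile, each of the 9 genes kept its direction. Tal1 ran from -0.79 to -0.59 in log2, the latter with a pseudocount of 5, and Erg from 0.29 to 0.51. The count past the rule of size was 0 in all settings tried except 1.5-fold, where it was 1 (Tal1). The fragment estimates were varied after seeing the data: the count of genes whose counting interval left out 1 was 7 with the longest linked transcript and 4 with 10 times fewer fragments (Gata2, Tal1, Lmo2 and Fli1). The share over all genes was computed with the main estimate only, at 66.9%. The counts under these other estimates therefore have no background beside them and do not set the named genes apart.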
